A study of Mus musculus with 15 samples.

Results

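Destabilization of the medial meniscus (DMM) was compared with sham surgery in the tibial subchondral bone of wild-type mice, the bone plate and marrow spaces beneath the joint cartilage, across every gene measured. The comparison used 10 of the 15 libraries of the series, chosen by their labels: 5 from DMM-operated and 5 from sham-operated wild-type mice. In both groups the animals were C57BL/6J males, 8 weeks old at surgery and killed 8 weeks after the operation. In DMM the medial meniscotibial ligament, which ties the medial meniscus to the tibia, was cut, and this destabilises the joint and leads to osteoarthritis. In sham surgery the capsule was opened and the ligament spared. The other 5 libraries came from DMM-operated Dmp1-Cre;Pvalb fl/fl males, in which a promoter active in osteocytes and late osteoblasts drives the recombinase. They entered the choice of genes tested, the estimate of the spread between libraries and, where muscle level was a covariate, its slope. Their own mean was not compared. Poly(A) RNA was sequenced from powdered bone, and levels were FPKM, fragments scaled to the length of the gene and to the total of the library.

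Subchondral bone holds bone-forming osteoblasts, matrix-embedded osteocytes, bone-resorbing osteoclasts, vessels and blood-forming marrow, and its edges carry the insertions of capsule, ligament and muscle. Connective tissue cells secrete fibrillar collagens, which enzymes hydroxylate, trim and cross-link, small leucine-rich proteoglycans that regulate fibril width, and microfibrils and matricellular glycoproteins that fill the space between them. In osteoarthritis the subchondral plate is known to remodel and thicken, and bony outgrowths and fibrous tissue form at the joint margin.

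The 10 libraries had FPKM sums between 375453 and 438984 and between 12854 and 13510 genes at 1 FPKM or more. The most frequent ratio between low FPKM values put their depth between 0.929 and 1.242 times that of DMM replicate 1, whereas the absolute depth was unknown. Bone genes were present: 26 osteoblast genes summed to between 4210 and 6840 FPKM after DMM and between 2740 and 4880 FPKM after sham surgery. Marrow was abundant, with erythroid genes at between 69100 and 103000 FPKM after DMM and between 73500 and 109000 FPKM after sham surgery. DMM replicate 3 lay farthest out of the 15 libraries on the first principal component, which held 32.23% of the variance. Skeletal muscle RNA varied widely within both groups. The mean log2(FPKM + 1) of 20 fast muscle genes was 4.92, 4.84, 5.94, 3.60 and 3.24 in DMM replicates 1 to 5, against 4.31, 6.96, 6.04, 2.41 and 6.71 in sham replicates 1 to 5. The groups overlapped, and although all 20 genes had a log2 difference below 0 (median -0.78), 0 of them had an unadjusted limma p under 0.05. In whole bone, fewer cells of a type and less RNA per cell cannot be told apart.

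Of 13653 genes tested on log2(FPKM + 1) with limma, 0 had an adjusted p under 0.05 for DMM against sham surgery (0%), and no adjusted p lay below 0.142. Before adjustment, 751 genes had p under 0.05 with higher levels after DMM (5.5%) and 195 with lower levels (1.43%). The 5 DMM libraries all lay above the 5 sham libraries for 202 genes (1.48%) and all below them for 42 genes (0.308%). For each such gene described here the exact two-sided permutation p was 0.00794, the smallest that 5 against 5 libraries can give. The median log2 difference over all genes was 0.00, and 50.4% of genes had a difference above 0.

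With the fast muscle level as a covariate, 276 of 13633 genes had a limma adjusted p under 0.05 (2.02%). Of these, 265 rose after DMM (1.94%) and 11 fell (0.0807%). The share of 1.94% is the background for the counts of genes that rose in each list below, whose own shares stand beside them. For 64 of the genes tested no sham library reached the 1 FPKM of the filter. These 64 entered through DMM libraries alone, wild-type or knockout, a choice that favours a higher level after DMM. They held 17 of the 265, of which 6 also passed with no filter, and of the other 13569 genes 248 rose (1.83%). Before adjustment, 1059 genes had p under 0.05 with higher levels (7.77%) and 330 with lower levels (2.42%), and 47.9% of all genes had a difference above 0. An unadjusted p under 0.05 without the covariate was already found for 266 of the 276, and 95 had groups that did not overlap. The covariate enlarged the absolute difference of 270 of them. The slope on the muscle level was positive for 262 of the 265 genes that rose, against 37.8% of all genes tested. The mean muscle level was lower after DMM (4.51 against 5.28), so in this fit a positive slope enlarges a positive difference. Choosing genes by this fit therefore favours positive slopes. When each of the 15 libraries was left out in turn, the count ran from 60 without sham replicate 4, the library with the least muscle RNA, to 293 without sham replicate 5. It was also lower by over 1.5 times without DMM replicate 1 (153 genes), DMM replicate 5 (132), sham replicate 1 (174), sham replicate 2 (144) or sham replicate 3 (126). In all 15 of these fits 52 of the 276 genes passed, each of them higher after DMM. These 52 are called stable below. With the 10 wild-type libraries alone, 152 of the 276 passed. "Rose" and "fell" refer to the fit with the muscle covariate, whose log2 differences are given for single genes unless stated otherwise. In the lists, counts of differences above or below 0 and of unadjusted p under 0.05 come from the fit without the covariate. So do list medians that stand alone without a label, and of paired medians the first does.

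**Figure D1:**
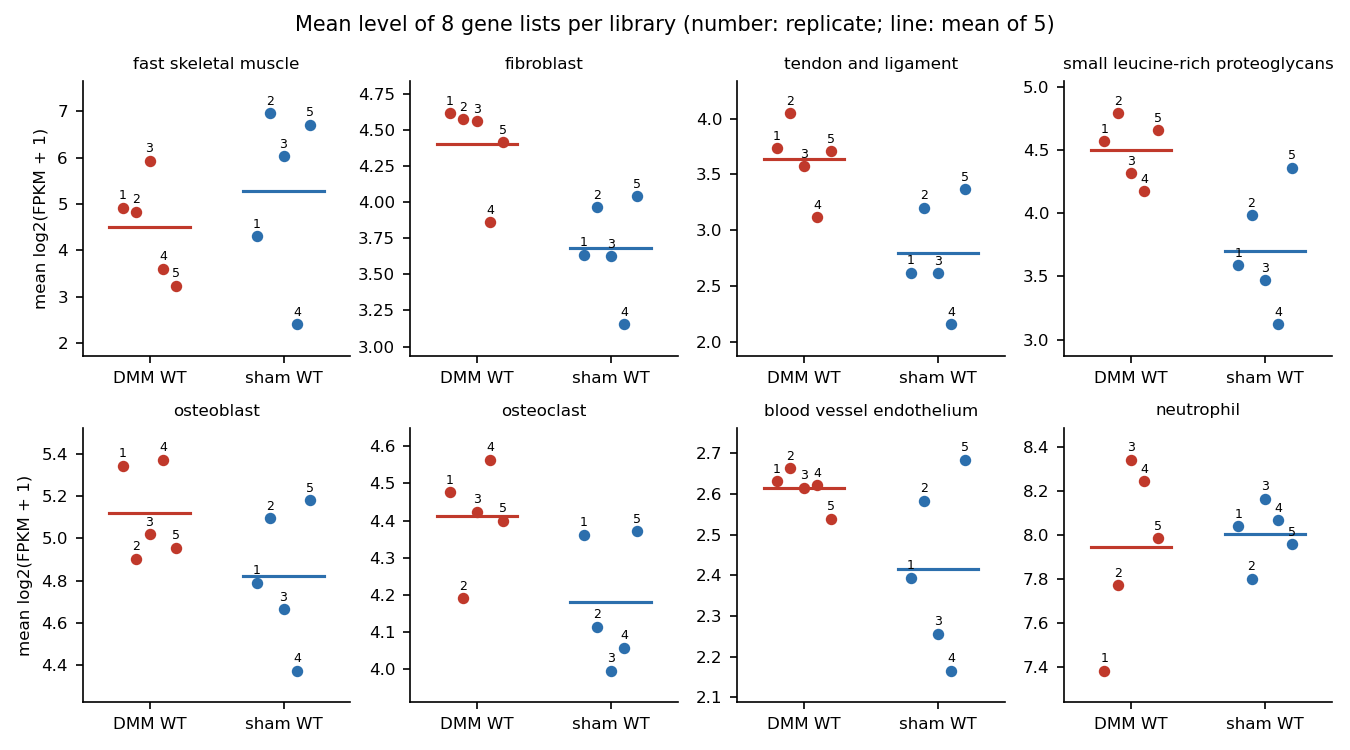
Mean log2(FPKM + 1) of 8 gene lists in each DMM wild-type (red, left) and sham wild-type (blue, right) library, with replicate numbers and a line at the mean of 5. Fast muscle spanned 2.41 to 6.96 in sham bones, and the fibroblast list overlapped between the groups only through DMM replicate 4, at 3.86.

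Connective tissue compartments had the largest medians. In the fibroblast list 27 of 29 tested genes had a log2 difference above 0, with a median of 0.55 without and 0.67 with the covariate, and 12 rose (41.4%, against 1.94% of all genes tested). All 10 tested tendon and ligament genes had differences above 0, with medians of 0.73 and 0.89, and 3 rose (30%). The mean log2 level of the fibroblast list was 4.61, 4.57, 4.56, 3.86 and 4.42 in DMM replicates 1 to 5, against 3.64, 3.96, 3.63, 3.15 and 4.04 in sham replicates 1 to 5. Its lowest value in each group fell in replicate 4, and DMM replicate 4 lay below sham replicates 2 and 5. The count of fibroblast genes that passed was 7 when DMM replicate 2 was left out, 6 when DMM replicate 1, DMM replicate 5, sham replicate 2 or sham replicate 3 was left out and 4 when sham replicate 4 was left out. Pdgfra, the receptor that marks most fibroblasts, averaged 5.68 ± 1.11 FPKM after DMM and 4.34 ± 1 FPKM after sham surgery (SD, n = 5 each, as for every mean below) and did not pass (limma log2 difference 0.41, adjusted p = 0.305).

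Col3a1, the fibrillar collagen of loose and healing connective tissue, had the largest difference of the 276 genes. It was at 141, 120, 96.6, 38.7 and 88.4 FPKM in DMM replicates 1 to 5, against 14.6, 21.8, 13.9, 5.11 and 27.8 FPKM in sham replicates 1 to 5. The groups did not overlap, and replicate 4 was lowest in each. The means were 97 ± 38.6 FPKM after DMM and 16.6 ± 8.61 FPKM after sham surgery, and the log2 difference was 2.53 without and 2.92 with the covariate (SE 0.39, limma adjusted p = 0.216 and 0.00339). Its promoter is shown because it belongs to the gene with the largest difference. Promoters here are those of RefSeq on GRCm38.p6, from 250 bases before to 50 bases after the annotated start, read 5′ to 3′ on the gene's strand. Capitals mark matches on either strand to TATAAA (the TATA box), CCAAT (the CCAAT box) or TGANTCA (the AP-1 site), of which no matches overlap in the windows shown. At least 1 match occurred in 13.6%, 37.4% and 7.79% of the table's 32544 promoters. Among the 9607 tested genes with a promoter there, the shares were 7.21%, 38.8% and 5.19%. The Col3a1 window, chr1:45311288-45311587 on the plus strand, holds 1 TATA box match, 117 bases before the start.
Col3a1: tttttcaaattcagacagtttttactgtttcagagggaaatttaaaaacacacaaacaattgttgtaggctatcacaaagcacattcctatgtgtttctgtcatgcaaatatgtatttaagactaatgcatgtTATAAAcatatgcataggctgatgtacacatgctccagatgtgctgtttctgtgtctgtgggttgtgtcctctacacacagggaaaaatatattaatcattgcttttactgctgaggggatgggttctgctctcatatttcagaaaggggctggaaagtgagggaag

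Dpt, dermatopontin, a collagen-binding protein of fibroblasts, was at 36.5, 24.8, 32.1, 3.8 and 21.1 FPKM in DMM replicates 1 to 5, against 5, 9.88, 5.67, 2.14 and 10.9 FPKM in sham replicates 1 to 5. DMM replicate 4 fell inside the sham range, and Dpt rose by 1.93 (limma adjusted p = 0.0342) with a slope of 0.498 log2 units per unit of muscle level. Thy1 and Pdpn, surface proteins of fibroblasts, rose by 0.82 and 0.76. Scx, the transcription factor of tendon cells, averaged 1.64 ± 0.679 FPKM after DMM and 0.735 ± 0.32 FPKM after sham surgery and rose by 0.72 (limma adjusted p = 0.0318). Cilp2, a matrix protein of cartilage and tendon, averaged 14 ± 5.94 FPKM after DMM and 5.23 ± 2.62 FPKM after sham surgery and rose by 1.56 (limma adjusted p = 0.00542), stable to leaving out a library. Tnmd, tenomodulin of mature tendon, averaged 2.86 ± 1.32 FPKM after DMM and 0.687 ± 0.625 FPKM after sham surgery but did not pass (limma log2 difference 1.43, adjusted p = 0.0654). Thbs4, a thrombospondin abundant in tendon, averaged 27 ± 12.3 FPKM after DMM and 13.6 ± 8.58 FPKM after sham surgery and did not pass either (limma adjusted p = 0.0905).

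Bone cell lists had smaller medians. Of the osteoblast genes 24 of 26 had differences above 0 (median 0.30 without and 0.37 with the covariate), and only Omd rose. Omd, osteomodulin of the mineralising surface, was at 20.1, 24.1, 17.5, 19.6 and 23.7 FPKM in DMM replicates 1 to 5, against 7.99, 15.1, 9.97, 7.47 and 16.6 FPKM in sham replicates 1 to 5. No DMM value fell into the sham range (log2 difference 1.01, limma adjusted p = 0.0246), and the call held in 10 of the 15 fits that left out a library. The main matrix genes did not pass. Col1a1, the chief bone collagen chain, averaged 1020 ± 302 FPKM after DMM and 868 ± 203 FPKM after sham surgery (limma log2 difference 0.31, adjusted p = 0.786). Bglap, osteocalcin, which has near-identical neighbouring copies, averaged 603 ± 221 FPKM after DMM and 422 ± 141 FPKM after sham surgery (limma adjusted p = 0.359), and Alpl, the alkaline phosphatase of mineralising cells, 55.6 ± 6.14 FPKM after DMM and 36.2 ± 15.4 FPKM after sham surgery (limma adjusted p = 0.0843). Spp1 and Ibsp, acidic glycoproteins that bind mineral, had log2 differences of 0.97 and 0.65 (limma adjusted p = 0.235 and 0.348).

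In the osteocyte list 13 of 18 differences were above 0 (medians 0.35 and 0.47), and 5 genes rose (27.8%): Pdpn, Enpp1, Ackr3, Mmp14 and Gja1, each also expressed by other connective tissue cells. The count was 3 when DMM replicate 2, DMM replicate 3, DMM replicate 5, sham replicate 1, sham replicate 2 or knockout replicate 2 was left out, 2 when DMM replicate 1 or sham replicate 3 was left out and 0 when sham replicate 4 was left out. Gja1, the gap junction protein connexin 43, averaged 14.2 ± 2.36 FPKM after DMM and 8.98 ± 2.4 FPKM after sham surgery and rose by 0.72 (limma adjusted p = 0.0172). Genes more restricted to osteocytes did not pass. Dmp1 averaged 43.7 ± 7.38 FPKM after DMM and 50 ± 29.6 FPKM after sham surgery (log2 difference without the covariate -0.04, limma adjusted p = 0.981), and Sost, the Wnt inhibitor sclerostin, 23.4 ± 3.6 FPKM after DMM and 24.9 ± 7.97 FPKM after sham surgery (-0.04, limma adjusted p = 0.971). The sign of both turned with the setting.

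In the osteoclast list 18 of 21 genes had differences above 0, with medians of 0.21 without and 0.20 with the covariate, and 0 passed in limma, while 5 had an unadjusted p under 0.05 without the covariate. Ctsk, the collagen-degrading cathepsin K, was at 334, 225, 592, 453 and 355 FPKM in DMM replicates 1 to 5, against 258, 204, 180, 158 and 307 FPKM in sham replicates 1 to 5. The groups overlapped through DMM replicate 2 (log2 difference 0.85, limma adjusted p = 0.119). Acp5, the tartrate-resistant acid phosphatase, averaged 380 ± 96.3 FPKM after DMM and 271 ± 81.8 FPKM after sham surgery (limma adjusted p = 0.479), and Oscar, an activating receptor, 7.37 ± 2.24 FPKM after DMM and 3.99 ± 1.3 FPKM after sham surgery (limma adjusted p = 0.128). The list had almost no slope on the muscle level, with a median of -0.00858 log2 units per unit.

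Of the chondrocyte genes 14 of 23 had differences above 0 (medians 0.08 and 0.15), and Comp and Col10a1 rose (8.7%). The median without the covariate was -0.069 without sham replicate 3 and -0.0809 without sham replicate 4. Comp, a pentameric glycoprotein of cartilage and tendon, was at 263, 351, 420, 254 and 337 FPKM in DMM replicates 1 to 5, against 90.2, 161, 104, 60.5 and 215 FPKM in sham replicates 1 to 5. The groups did not overlap, and Comp rose by 1.72 (SE 0.21, limma adjusted p = 0.00339), stable to leaving out a library. Col10a1, the collagen of hypertrophic cartilage, averaged 106 ± 33.2 FPKM after DMM and 44.7 ± 32.4 FPKM after sham surgery and rose by 1.70 (limma adjusted p = 0.049), a call that held in 3 of the 15 fits. Genes that define the cartilage core did not pass. Acan, aggrecan, averaged 34.2 ± 6.69 FPKM after DMM and 29.4 ± 16.6 FPKM after sham surgery and Col2a1 134 ± 43.8 FPKM after DMM and 106 ± 72.5 FPKM after sham surgery (limma adjusted p = 0.733 and 0.671). Col9a1, of the collagen on cartilage fibrils, averaged 6.57 ± 3.74 FPKM after DMM and 13.4 ± 10.5 FPKM after sham surgery, and Cytl1, a cytokine-like cartilage protein, 136 ± 38.6 FPKM after DMM and 264 ± 108 FPKM after sham surgery (log2 differences -0.74 and -0.78, limma adjusted p = 0.744 and 0.41).

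Vessel genes had small differences. Of the endothelial genes 25 of 30 had differences above 0, with medians of 0.19 and 0.25, and 7 rose (23.3%): Emcn, Egfl7, Plvap, Sox18, Apln, Dll4 and Clec14a. The mean log2 level of the list was 2.63, 2.66, 2.62, 2.62 and 2.54 in DMM replicates 1 to 5, against 2.39, 2.58, 2.26, 2.17 and 2.68 in sham replicates 1 to 5. The DMM libraries lay close together and inside the upper part of the sham range. The count was 3 when DMM replicate 3, DMM replicate 4, sham replicate 1 or sham replicate 2 was left out, 2 when DMM replicate 5 or sham replicate 3 was left out and 1 when sham replicate 4 was left out. Emcn, Egfl7, Plvap, Dll4 and Clec14a did not pass with the 10 wild-type libraries alone. Pecam1, the adhesion molecule of all endothelium, averaged 12.9 ± 0.585 FPKM after DMM and 11.8 ± 1.42 FPKM after sham surgery (log2 difference 0.16, limma adjusted p = 0.52). Emcn, the sialomucin of bone capillaries, averaged 2.72 ± 0.29 FPKM after DMM and 1.91 ± 0.424 FPKM after sham surgery and rose by 0.42 (limma adjusted p = 0.0164). Rgs5, a pericyte gene, averaged 22 ± 1.56 FPKM after DMM and 15.9 ± 5.19 FPKM after sham surgery and rose by 0.67 (limma adjusted p = 0.0107), alone among 14 tested pericyte and smooth muscle genes.

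Apln encodes apelin, a peptide ligand of sprouting endothelium that signals through the receptor Aplnr. It was at 1.49, 1.51, 1.98, 1.85 and 1.46 FPKM in DMM replicates 1 to 5, against 0.374, 0.612, 0.594, 0.276 and 0.643 FPKM in sham replicates 1 to 5. The lowest DMM value, 1.46 FPKM, lay above the highest sham value, 0.643 FPKM, so that Apln passed the filter through DMM libraries alone. It also passed with no filter (limma adjusted p = 0.0106). The log2 difference was 0.83 without the covariate (limma adjusted p = 0.142) and 0.91 with it (SE 0.11, limma adjusted p = 0.00339), stable to leaving out a library. Aplnr averaged 5.98 ± 0.734 FPKM after DMM and 4.37 ± 0.961 FPKM after sham surgery and did not pass (limma log2 difference 0.45, adjusted p = 0.104). The Apln promoter is shown because Apln had the smallest unadjusted p without the covariate among the genes described here. Its window, chrX:48034804-48035103 on the minus strand, holds no match to these 3 motifs.
Apln: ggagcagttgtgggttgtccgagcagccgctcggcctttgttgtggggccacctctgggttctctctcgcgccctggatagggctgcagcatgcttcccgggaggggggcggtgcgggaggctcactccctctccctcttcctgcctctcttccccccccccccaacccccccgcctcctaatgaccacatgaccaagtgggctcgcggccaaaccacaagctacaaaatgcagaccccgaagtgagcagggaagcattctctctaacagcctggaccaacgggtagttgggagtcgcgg

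Marrow compartments had medians on both sides of 0. With the covariate they lay between -0.31 and 0.14 over the erythroid, megakaryocyte, neutrophil, macrophage, dendritic cell, B cell, plasma cell, T and NK cell, mast cell with basophil and eosinophil, and stem cell lists. In these lists limma called 2 genes, both higher: Timp2 in the macrophage list and Procr in the stem cell list, which stromal cells and endothelium also express. In the marrow stroma and adipocyte list 6 of 18 genes had differences above 0 (medians -0.02 and -0.03, whose sign turned under some settings). There limma called 1 gene, which fell, and the count ran from 0 to 1 when 1 library was left out. Hbb-bs, an adult beta globin with a near-identical paralog, averaged 23800 ± 3860 FPKM after DMM and 23600 ± 3650 FPKM after sham surgery. Mpo, the myeloperoxidase of neutrophil precursors, averaged 296 ± 41.3 FPKM after DMM and 318 ± 33.8 FPKM after sham surgery. Neither passed (limma adjusted p = 0.994 and 0.805).

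All 17 tested genes of the mast cell, basophil and eosinophil list had differences below 0 (median -0.27 without and -0.31 with the covariate), yet 0 passed in limma and 2 had an unadjusted p under 0.05 without the covariate. The mean log2 level of the list was 4.145, 4.455, 4.878, 4.952 and 4.776 in DMM replicates 1 to 5, against 5.061, 4.784, 4.943, 4.98 and 4.972 in sham replicates 1 to 5. DMM replicates 1 and 2 were lowest, and DMM replicates 3 and 4 lay inside the sham range. Ms4a2, the beta chain of the IgE receptor, was at 1.09, 4.11, 3.82, 1.93 and 1.34 FPKM in DMM replicates 1 to 5, against 6.35, 4.76, 5.57, 5.55 and 4.32 FPKM in sham replicates 1 to 5. The DMM libraries all lay below the sham libraries (log2 difference -0.98, limma adjusted p = 0.137). Siglecf, an eosinophil lectin, averaged 4.39 ± 0.929 FPKM after DMM and 5.43 ± 0.351 FPKM after sham surgery (limma adjusted p = 0.246). Among T and NK cell genes, Cd4 averaged 3.66 ± 0.935 FPKM after DMM and 5.78 ± 1.14 FPKM after sham surgery and Ncr1, an NK cell receptor, 1.28 ± 0.356 FPKM after DMM and 1.89 ± 0.343 FPKM after sham surgery, and neither passed (limma log2 differences -0.61 and -0.42, adjusted p = 0.107 and 0.0605). Defining genes of lymphatic vessels (Prox1) and slow muscle (Myh7) were below the filter. They reached at most 0.158 and 0.35 FPKM after DMM and 0.0497 and 1.22 FPKM after sham surgery.

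Antibody genes differed between single animals. Ighm, the IgM heavy chain, was at 418, 513, 487, 448 and 447 FPKM in DMM replicates 1 to 5, against 2180, 2270, 441, 672 and 403 FPKM in sham replicates 1 to 5, and Jchain, which joins IgM and IgA, at 48.9, 25.1, 65, 26.4 and 31.6 FPKM in DMM replicates 1 to 5, against 196, 201, 48.5, 52.5 and 25.9 FPKM in sham replicates 1 to 5. Sham replicates 1 and 2 were high for both, and the other 3 sham libraries overlapped with or lay near the DMM libraries. Of the immunoglobulin variable segments 41 of 160 had differences above 0 (median -0.28), and 1 passed. Igkv8-28 was at 95.9, 36.3, 54.9, 96.2 and 18.2 FPKM in DMM replicates 1 to 5, against 6.58, 5.14, 14.3, 3.5 and 10.7 FPKM in sham replicates 1 to 5 and rose by 2.79 (limma adjusted p = 0.015), without overlap. Ighv3-6 went the other way, at 13.4, 10.6, 6.41, 12.8 and 7.29 FPKM in DMM replicates 1 to 5, against 267, 81.4, 21.8, 17.9 and 32.5 FPKM in sham replicates 1 to 5, again without overlap, but did not pass (limma adjusted p = 0.164). Ighg1, the IgG1 constant region, was at 13.6, 15.7, 60.3, 109 and 20.3 FPKM in DMM replicates 1 to 5, against 9.02, 1.79, 8.51, 4.39 and 13.5 FPKM in sham replicates 1 to 5 (limma adjusted p = 0.107). Variable segments are a family of near-identical copies, so the division of fragments between them is uncertain.

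**Figure D2:**
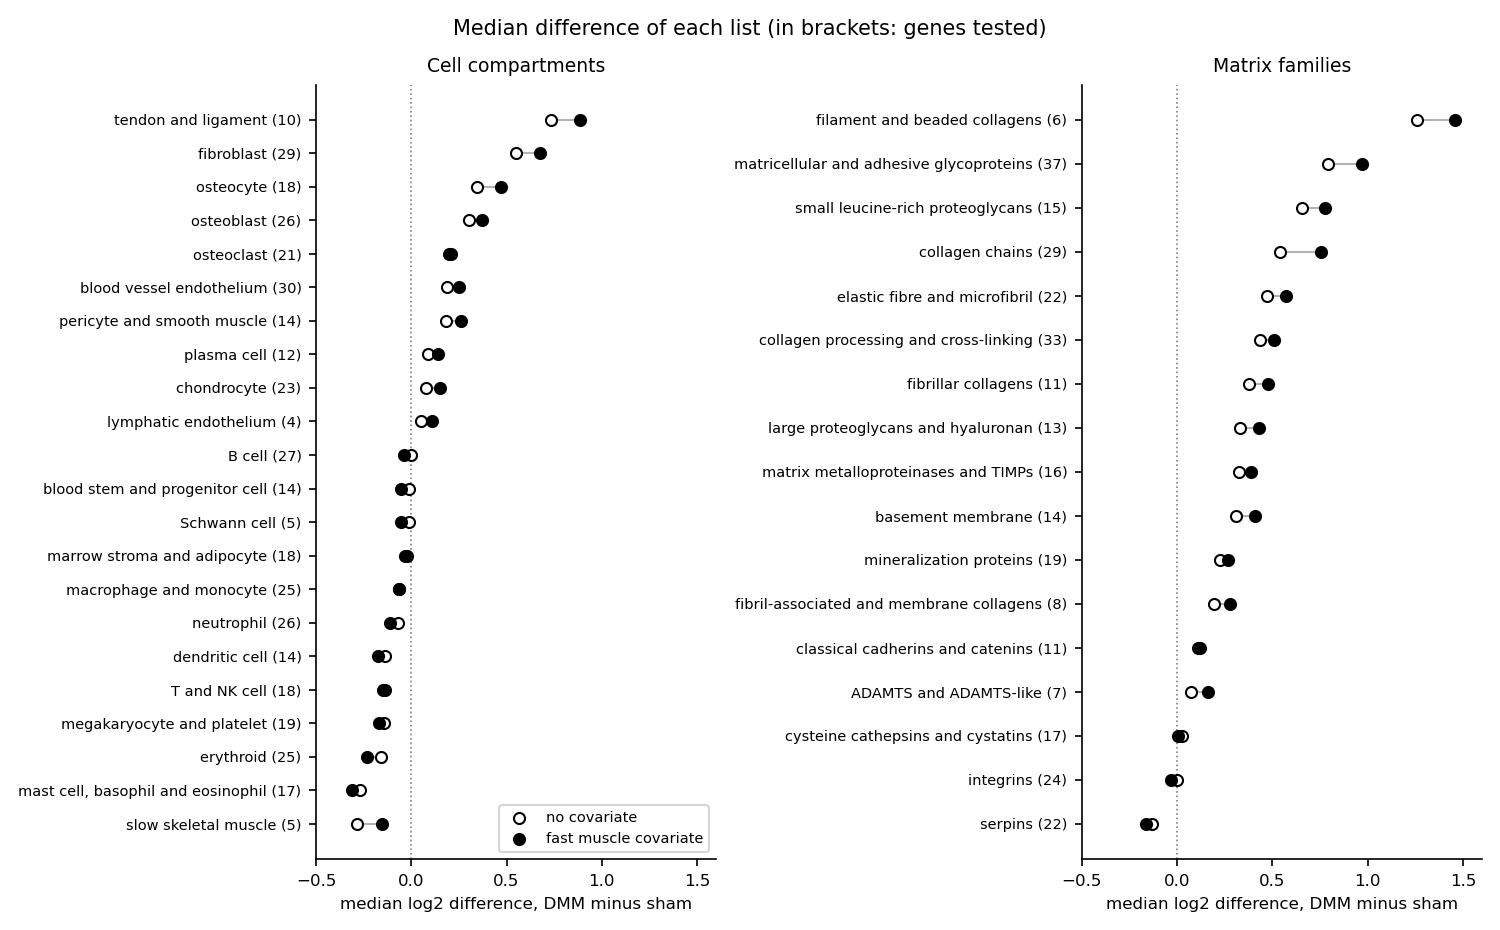
Median log2 difference (DMM minus sham) of the tested genes in each cell compartment list other than fast muscle and in 17 matrix lists, without (open) and with (filled) the fast muscle covariate, with the number of genes tested in brackets. Tendon, fibroblast and most matrix lists lie to the right and move further right with the covariate, and marrow lists lie between -0.31 and 0.14 with it.

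Matrix genes made up a large part of what rose. Of 268 tested genes in the 17 matrix lists, 65 rose (24.3%, against 1.94% of all genes tested) and 0 fell in limma with the covariate. Without the genes that passed the filter through DMM libraries alone, 64 of 265 rose (24.2%, against 1.83%). The DMM libraries all lay above the sham libraries for 34 of the 268 (12.7%, against 1.48%). Of the 52 stable genes, 19 were in a matrix list. Members of these lists share the same libraries, and several are also fibroblast genes.

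Collagen chains differed by type. Of the tested chains 25 of 29 had differences above 0, the medians were 0.54 and 0.76, and 9 rose (31%): Col3a1, Col5a1, Col6a1, Col6a2, Col6a3, Col10a1, Col15a1, Col16a1 and Col18a1. The count was 5 when DMM replicate 1, DMM replicate 2, sham replicate 2 or sham replicate 3 was left out and 4 when sham replicate 4 was left out. Col6a2, a chain of the beaded filaments around cells, was at 42.2, 38, 42.5, 25.9 and 30 FPKM in DMM replicates 1 to 5, against 14.6, 13.2, 8.01, 5.41 and 21.1 FPKM in sham replicates 1 to 5. DMM and sham values were fully separated, and Col6a2 rose by 1.78 (SE 0.24, limma adjusted p = 0.00339), stable to leaving out a library. Its partner chains Col6a1 and Col6a3 rose by 1.56 and 1.36 (limma adjusted p = 0.0164 and 0.0318). The 6 tested filament and beaded collagens had the highest medians of the 80 lists, 1.26 and 1.46, which with no filter on low values became 0.48 and 0.53. Col5a1, a minor chain that starts fibrils, averaged 29.5 ± 6.08 FPKM after DMM and 16.5 ± 3.79 FPKM after sham surgery and rose by 0.94 (limma adjusted p = 0.0275). Its partners Col5a2 and Col5a3 had differences of 0.86 and 0.87 and did not pass (limma adjusted p = 0.0605 and 0.0589), although their groups did not overlap.

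Among basement membrane genes Col15a1, Col18a1 and the laminin chain Lamb1 rose (21.4%). The count was 1 when DMM replicate 1, DMM replicate 5, sham replicate 2, sham replicate 3 or sham replicate 4 was left out. Col15a1, a collagen under vessel and muscle cells, was at 8.32, 11.8, 5.9, 4.6 and 7 FPKM in DMM replicates 1 to 5, against 2.14, 3.14, 1.8, 1.24 and 3.33 FPKM in sham replicates 1 to 5. All DMM values lay above all sham values, and Col15a1 rose by 1.52 (limma adjusted p = 0.00634). The main network chains did not pass: Col4a1 averaged 16.1 ± 4.49 FPKM after DMM and 11.2 ± 4.67 FPKM after sham surgery and Col4a2 15.2 ± 2.48 FPKM after DMM and 9.8 ± 3.3 FPKM after sham surgery (limma adjusted p = 0.198 and 0.1). Col16a1, a chain on fibril surfaces, averaged 9.49 ± 1.3 FPKM after DMM and 4.55 ± 1.95 FPKM after sham surgery and rose by 1.22 (limma adjusted p = 0.00398). Col15a1 and Col16a1 were stable to leaving out a library.

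Of the small leucine-rich proteoglycans 13 of 15 had differences above 0 (median 0.65 without and 0.78 with the covariate), and 6 rose (40%): Aspn, Fmod, Lum, Dcn, Omd and Bgn. Aspn, asporin, which binds collagen and TGF-beta, was at 26.6, 52.9, 28.8, 11.6 and 37.4 FPKM in DMM replicates 1 to 5, against 5.05, 8.62, 5.03, 2.43 and 8.58 FPKM in sham replicates 1 to 5. The groups did not overlap, and Aspn rose by 2.46 (SE 0.43, limma adjusted p = 0.0116), a call that held in 14 of the 15 fits and was lost without sham replicate 4. Fmod, fibromodulin of tendon and ligament, was at 94, 141, 91, 74.8 and 92.7 FPKM in DMM replicates 1 to 5, against 24.6, 41.4, 19.9, 10.4 and 53.5 FPKM in sham replicates 1 to 5. The lowest DMM value exceeded the highest sham value, and Fmod rose by 2.16 (SE 0.28, limma adjusted p = 0.00339). Lum, lumican, averaged 138 ± 23.8 FPKM after DMM and 43.6 ± 16.6 FPKM after sham surgery and rose by 1.97, and Dcn, decorin, averaged 128 ± 38.7 FPKM after DMM and 53.3 ± 19 FPKM after sham surgery and rose by 1.49 (limma adjusted p = 0.00347 and 0.00542). Bgn, biglycan, averaged 112 ± 14 FPKM after DMM and 72.3 ± 18.2 FPKM after sham surgery and rose by 0.78 (limma adjusted p = 0.0452), in 5 of the 15 fits that left out a library. Prelp averaged 57.3 ± 25.4 FPKM after DMM and 27.7 ± 13.7 FPKM after sham surgery and did not pass (limma adjusted p = 0.0961). The count for the list was 3 when sham replicate 4 was left out.

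The promoters of Fmod and Aspn are shown because these proteoglycans had the largest differences in their list. The Fmod window, chr1:134037004-134037303 on the plus strand, holds 1 CCAAT box match, beginning at base 35 after the start. The Aspn window, chr13:49544193-49544492 on the plus strand, holds 2 TATA box matches, 207 and 178 bases before the start, and 1 CCAAT box match 229 bases before it.
Fmod: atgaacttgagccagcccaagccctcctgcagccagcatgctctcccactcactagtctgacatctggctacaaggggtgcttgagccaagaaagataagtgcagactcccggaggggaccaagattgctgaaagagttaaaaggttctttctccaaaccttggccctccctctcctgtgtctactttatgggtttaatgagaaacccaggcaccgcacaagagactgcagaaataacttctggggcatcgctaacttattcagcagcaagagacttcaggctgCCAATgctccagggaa
Aspn: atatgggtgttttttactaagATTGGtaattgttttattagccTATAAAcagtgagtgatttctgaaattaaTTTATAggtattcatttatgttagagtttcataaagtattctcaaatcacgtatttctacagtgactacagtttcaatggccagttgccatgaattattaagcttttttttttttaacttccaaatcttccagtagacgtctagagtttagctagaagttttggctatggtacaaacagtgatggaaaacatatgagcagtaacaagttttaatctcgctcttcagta

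Enzymes that modify collagen had 30 of 33 differences above 0 (medians 0.44 and 0.51), and 12 rose (36.4%). P4ha2, a prolyl hydroxylase subunit, was at 4.17, 4.72, 5.95, 4.03 and 4 FPKM in DMM replicates 1 to 5, against 2.18, 3.07, 1.94, 1.2 and 3.68 FPKM in sham replicates 1 to 5. There was no overlap between the groups, and P4ha2 rose by 0.90 (SE 0.11, limma adjusted p = 0.00339). Pcolce, which speeds removal of the collagen propeptide, averaged 32.1 ± 9.83 FPKM after DMM and 14.6 ± 5.04 FPKM after sham surgery and rose by 1.29 (limma adjusted p = 0.00398). The cross-linking oxidases Loxl2 and Lox rose by 1.26 and 0.70, and the lysyl hydroxylase Plod2 and its partner Fkbp10 by 0.80 and 0.62. P4ha3 rose by 1.09 (limma adjusted p = 0.0342) at 1.46 ± 0.708 FPKM after DMM and 0.233 ± 0.121 FPKM after sham surgery. No sham library reached the filter for P4ha3, and it did not pass with no filter (limma adjusted p = 0.0879). The count for the list was 7 when sham replicate 1 or sham replicate 2 was left out, 6 when sham replicate 3 was left out, 4 when DMM replicate 1 or DMM replicate 5 was left out and 2 when sham replicate 4 was left out.

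Matricellular and adhesive glycoproteins had more genes that rose than any other list, 18 of 37 (48.6%), with 35 of 37 differences above 0 and medians of 0.79 and 0.97. Tnn, tenascin-W of bone and tendon surfaces, was at 9.46, 12.3, 3.71, 5.71 and 6.28 FPKM in DMM replicates 1 to 5, against 1.65, 1.62, 0.99, 0.365 and 1.89 FPKM in sham replicates 1 to 5. The groups did not overlap, and Tnn rose by 2.05 (SE 0.41, limma adjusted p = 0.0221), in 9 of the 15 fits. Thbs2, a thrombospondin that binds matrix and proteases, averaged 7.75 ± 2.53 FPKM after DMM and 2.66 ± 1.09 FPKM after sham surgery and rose by 1.5, and Thbs3, its relative, averaged 6.5 ± 2.18 FPKM after DMM and 2.5 ± 1.02 FPKM after sham surgery and rose by 1.22 (limma adjusted p = 0.0103 and 0.0145). Postn, periostin of periosteum and ligament, averaged 11.7 ± 2.86 FPKM after DMM and 4.85 ± 1.63 FPKM after sham surgery and rose by 1.36 (limma adjusted p = 0.0116). Aebp1, a collagen-binding secreted protein, rose by 1.25 (limma adjusted p = 0.0111). Fn1, fibronectin, averaged 197 ± 106 FPKM after DMM and 82.8 ± 30.3 FPKM after sham surgery and did not pass (limma adjusted p = 0.105). The count for the list was 11 when sham replicate 3 was left out and 6 when sham replicate 4 was left out.

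In the elastic fibre and microfibril list 9 of 22 genes rose (40.9%, medians 0.47 and 0.57). Mfap2, a microfibril protein, averaged 5.23 ± 1.06 FPKM after DMM and 2.88 ± 1.07 FPKM after sham surgery and rose by 0.85 (SE 0.11, limma adjusted p = 0.00339). The latent TGF-beta binding proteins Ltbp1, Ltbp3 and Ltbp4 rose by 0.41, 0.76 and 0.83, and only Ltbp1 of these was stable. The count for the list was 5 when DMM replicate 2 or sham replicate 1 was left out, 3 when DMM replicate 1, DMM replicate 5, sham replicate 2 or sham replicate 3 was left out and 2 when sham replicate 4 was left out.

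Of the metalloproteinases and their inhibitors 5 of 16 rose (31.2%): Mmp2, Mmp3, Mmp14, Mmp23 and Timp2. The count was 2 when sham replicate 4 was left out. Mmp3, stromelysin, was at 10.6, 4.61, 9.77, 1.61 and 6.63 FPKM in DMM replicates 1 to 5, against 0.736, 1.08, 0.658, 0.263 and 1.88 FPKM in sham replicates 1 to 5. DMM replicate 4 lay below sham replicate 5, and Mmp3 rose by 2.14 (limma adjusted p = 0.015). Mmp14, the membrane protease that activates the gelatinase Mmp2, averaged 18.4 ± 2.61 FPKM after DMM and 11.3 ± 2.39 FPKM after sham surgery and rose by 0.75, and Mmp2 averaged 54.1 ± 13.6 FPKM after DMM and 20.2 ± 6.22 FPKM after sham surgery and rose by 1.6 (limma adjusted p = 0.0157 and 0.00339). The collagenase Mmp13 averaged 220 ± 40.6 FPKM after DMM and 150 ± 40.2 FPKM after sham surgery and the inhibitor Timp1 38.5 ± 28.7 FPKM after DMM and 13.2 ± 7.19 FPKM after sham surgery, and neither passed (limma adjusted p = 0.0997 and 0.0589). Timp1 was at 89.5 FPKM in DMM replicate 3. Htra1, a secreted serine protease in none of the lists, averaged 39.4 ± 12.7 FPKM after DMM and 11.6 ± 4.9 FPKM after sham surgery and rose by 1.98 (limma adjusted p = 0.00339).

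The other matrix families had at most 2 genes each that passed. Of the ADAMTS proteases 0 of 7 passed in limma (median 0.07), and 1, Adamts2, had an unadjusted p under 0.05 without the covariate. Cathepsins and cystatins, serpins and integrins had medians of 0.03, -0.13 and 0.00, each of which turned sign under at least 1 alternative setting. In them Ctsf, Serpinf1, Itgb5 and Itgbl1 rose, by 0.37, 0.80, 0.45 and 1.44. Mineralization proteins had a median of 0.22, and 1 of 19 rose, Enpp1, the enzyme that makes pyrophosphate. In the hyaluronan and large proteoglycan list (median 0.33) 0 of 13 passed in limma, and 3 had an unadjusted p under 0.05. Of those, the hyaluronan synthase Has1 averaged 2.42 ± 1.39 FPKM after DMM and 0.539 ± 0.247 FPKM after sham surgery (limma adjusted p = 0.051). No sham library reached the filter for Has1, and over the other 12 genes the median without the covariate was 0.23.

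**Figure D3:**
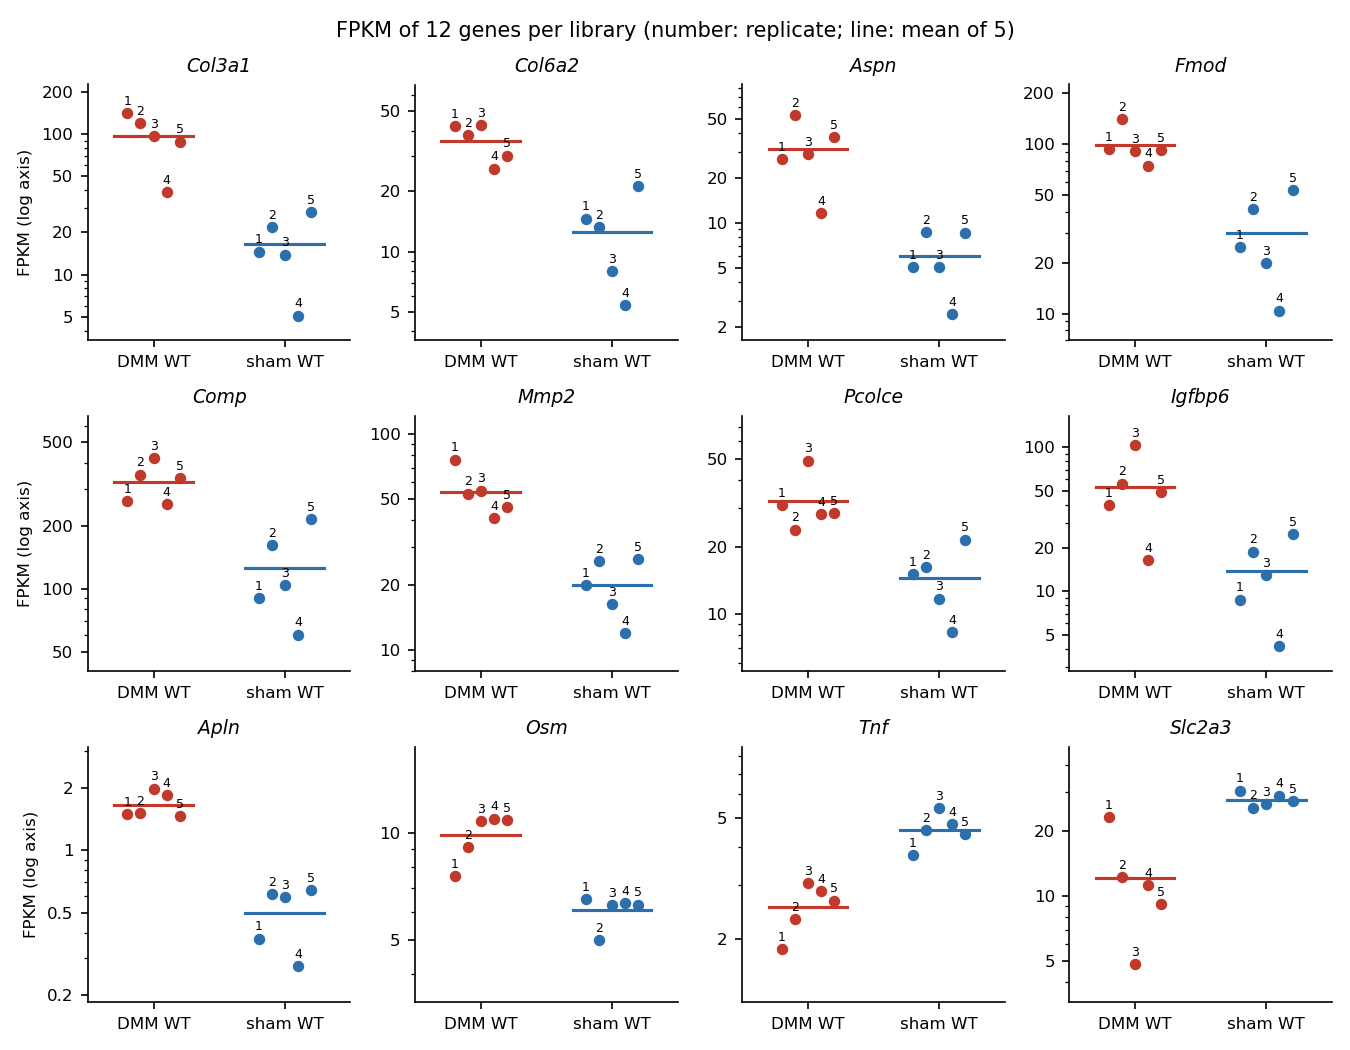
FPKM on a log axis of 12 genes in each DMM wild-type (red, left) and sham wild-type (blue, right) library, with replicate numbers and a line at the mean of 5. The groups do not overlap for 11 of the 12. The exception is Igfbp6, whose DMM replicate 4, at 16.5 FPKM, lay below sham replicates 2 and 5.

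Signalling lists had smaller medians than the list of all collagen chains (0.54 and 0.76). The fibril-associated and membrane collagens alone, at 0.19 and 0.28, lay below the Wnt list. In the Wnt list 31 of 35 genes had differences above 0 (medians 0.24 and 0.30), and 6 rose (17.1%), 5 of them among the 32 with a sham library at 1 FPKM or more. They were the secreted Wnt antagonists Frzb and Sfrp2, the Dickkopf relative Dkk3, the intracellular antagonist Dact3, and the receptors Fzd6 and Fzd8. The count was 2 when sham replicate 4 was left out. Dact3 was at 1.4, 1.61, 1.91, 1.53 and 1.46 FPKM in DMM replicates 1 to 5, against 0.565, 0.944, 0.718, 0.489 and 0.761 FPKM in sham replicates 1 to 5. Each DMM value exceeded each sham value (log2 difference 0.68, SE 0.09, limma adjusted p = 0.00339). No sham library reached the filter for Dact3, which also passed with no filter (limma adjusted p = 0.0106). Sfrp2 averaged 3.9 ± 1.21 FPKM after DMM and 0.996 ± 0.603 FPKM after sham surgery and rose by 1.56 (limma adjusted p = 0.00542). Frzb averaged 9.94 ± 1.2 FPKM after DMM and 4.33 ± 2.03 FPKM after sham surgery and rose by 1.31 (limma adjusted p = 0.0249). Dkk3 averaged 8.85 ± 3.44 FPKM after DMM and 2.37 ± 0.993 FPKM after sham surgery and rose by 1.74 (limma adjusted p = 0.015).

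The TGF-beta list had 26 of 29 differences above 0 (medians 0.19 and 0.24), and Ltbp1, Ltbp3 and Pmepa1 rose. Pmepa1, a target that restrains the pathway, averaged 10.9 ± 3.1 FPKM after DMM and 5.77 ± 1.76 FPKM after sham surgery, without overlap, and rose by 1.00 (limma adjusted p = 0.00408). In the BMP list (medians 0.13 and 0.16) the transcription factor Msx1 and the inhibitory Smad6 rose by 0.64 and 0.78 (limma adjusted p = 0.00339 each), both stable, although Msx1 passed the filter through DMM libraries alone. Smad6 was at 5.54, 4.56, 6.57, 6.17 and 4.3 FPKM in DMM replicates 1 to 5, against 3.06, 3.53, 2.63, 1.96 and 3.95 FPKM in sham replicates 1 to 5. All DMM values lay above all sham values. Bmp4, a ligand, averaged 4.56 ± 0.732 FPKM after DMM and 2.99 ± 0.649 FPKM after sham surgery, also without overlap, but did not pass (limma adjusted p = 0.195).

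Igfbp6 and Igfbp7, which bind insulin-like growth factors or related ligands, rose by 2.23 and 1.03 (limma adjusted p = 0.00446 and 0.00681). Igfbp6 was at 39.6, 55.9, 104, 16.5 and 48.8 FPKM in DMM replicates 1 to 5, against 8.75, 18.8, 13, 4.16 and 24.9 FPKM in sham replicates 1 to 5, with a slope of 0.502 log2 units per unit of muscle level. The FGF receptor Fgfr1, the PDGF receptor-like Pdgfrl and the Notch ligand Dll4 rose by 0.64, 1.07 and 0.41. Hedgehog genes (medians 0.32 and 0.37) had 0 calls in limma, and 1 of 9, the receptor and target Ptch1, had an unadjusted p under 0.05. Of 23 tested genes in the YAP/TAZ list (medians 0.22 and 0.25), Ccn1, Nt5e and Yap1, which encodes YAP itself and not a target, rose. The count was 1 when DMM replicate 1, DMM replicate 5 or sham replicate 1 was left out and 0 when sham replicate 2, sham replicate 3 or sham replicate 4 was left out. Axon guidance genes had a median of 0.08 and 0 calls in limma, with 1 of 37 at an unadjusted p under 0.05.

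Among limb and skeletal patterning factors, which maintain positional identity in connective tissue cells, 16 of 17 had differences above 0 (median 0.39 without and 0.52 with the covariate), and 8 rose (47.1%), among them Msx1, Prrx2, Twist1, Tbx15, Tbx18, Pitx1 and Osr2. No sham library reached the filter for 4 of the 17, Msx1, Prrx2, Tbx18 and Osr2, and of the other 13 genes 4 rose. Prrx2, a homeobox gene of limb mesenchyme, was at 1.97, 1.98, 4.03, 1.28 and 1.78 FPKM in DMM replicates 1 to 5, against 0.255, 0.654, 0.517, 0.108 and 0.838 FPKM in sham replicates 1 to 5. The groups did not overlap, and Prrx2 rose by 1.27 (limma adjusted p = 0.0107, and 0.0347 with no filter). Pitx1, which specifies the hindlimb, averaged 2.21 ± 0.303 FPKM after DMM and 1.17 ± 0.458 FPKM after sham surgery and rose by 0.69 (limma adjusted p = 0.00634). Of 9 HOX genes tested, Hoxa10 and Hoxd9 rose by 0.58 and 0.57 (22.2%). That count was 1 when DMM replicate 2, DMM replicate 3, sham replicate 2 or knockout replicate 2 was left out and 0 when DMM replicate 1, DMM replicate 5, sham replicate 1, sham replicate 3 or sham replicate 4 was left out. The count of patterning factors was 2 when sham replicate 4 was left out.

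Inflammatory lists had medians near 0, and members went both ways. Osm, the cytokine oncostatin M, was at 7.55, 9.12, 10.8, 11 and 10.9 FPKM in DMM replicates 1 to 5, against 6.52, 4.98, 6.26, 6.34 and 6.28 FPKM in sham replicates 1 to 5. DMM libraries lay above all sham libraries, and Osm rose by 0.59 (limma adjusted p = 0.0435), in 4 of the 15 fits that left out a library, with a slope of only -0.0299 on the muscle level. Il1b, interleukin 1 beta, was at 15.4, 23.9, 29.5, 26 and 20.1 FPKM in DMM replicates 1 to 5, against 13.8, 12.5, 11.1, 13.9 and 15.1 FPKM in sham replicates 1 to 5. Its groups were separate as well, but it did not pass (log2 difference 0.74, limma adjusted p = 0.0626). Cxcl2, a chemokine for neutrophils, averaged 1.25 ± 0.182 FPKM after DMM and 0.429 ± 0.168 FPKM after sham surgery, without overlap (limma adjusted p = 0.4). No sham library reached the filter for Cxcl2, which was thus tested through DMM libraries alone. Of the interferon-stimulated genes 10 of 47 had differences above 0 (medians -0.10 and -0.11), and 0 passed in limma, with 2 at an unadjusted p under 0.05 without the covariate, Cxcl9 and Irgm2, both lower. Cxcl9, a T cell chemokine, averaged 1.6 ± 0.589 FPKM after DMM and 2.79 ± 0.806 FPKM after sham surgery, and Ccl8, a monocyte chemokine, 1.36 ± 0.473 FPKM after DMM and 3.73 ± 1.9 FPKM after sham surgery (limma adjusted p = 0.244 and 0.161).

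Tnf, the inflammatory cytokine, was the only gene of the TNF superfamily list that passed, and it fell. It was at 1.85, 2.32, 3.05, 2.87 and 2.67 FPKM in DMM replicates 1 to 5, against 3.77, 4.55, 5.38, 4.77 and 4.42 FPKM in sham replicates 1 to 5. Every DMM value lay below every sham value, and the log2 difference was -0.66 without (limma adjusted p = 0.142) and -0.66 with the covariate (SE 0.12, limma adjusted p = 0.013). The call held in 14 of the 15 fits that left out a library and was lost without sham replicate 4. Its promoter is shown as that of the gene lower after DMM with the smallest adjusted p. The window, chr17:35201958-35202257 on the minus strand, holds 1 TATA box match, 29 bases before the start.
Tnf: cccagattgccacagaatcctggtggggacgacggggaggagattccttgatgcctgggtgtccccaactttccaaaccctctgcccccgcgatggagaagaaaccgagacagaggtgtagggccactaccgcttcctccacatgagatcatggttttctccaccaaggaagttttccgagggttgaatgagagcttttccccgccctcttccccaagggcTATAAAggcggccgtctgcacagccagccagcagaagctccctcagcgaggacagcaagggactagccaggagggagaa

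**Figure D4:**
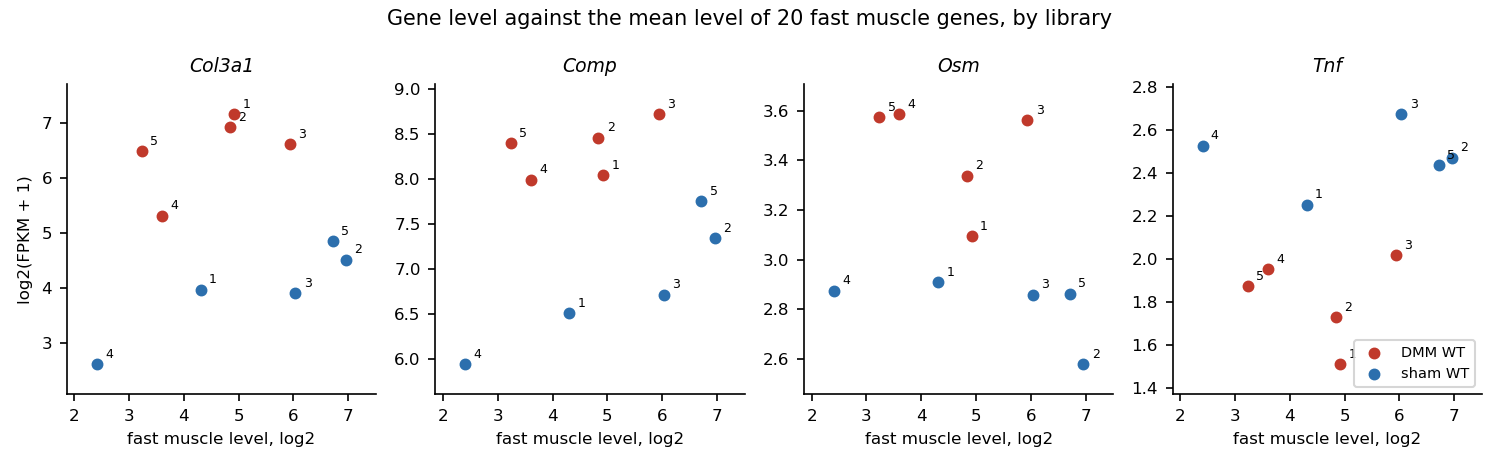
log2(FPKM + 1) of Col3a1, Comp, Osm and Tnf against the mean log2 level of 20 fast muscle genes in each DMM wild-type (red) and sham wild-type (blue) library, with replicate numbers. Col3a1 and Comp were lowest in sham replicate 4, which held the least muscle RNA (2.41), and the groups do not overlap in any of the 4 genes.

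Stress, metabolic and housekeeping lists had few calls. Fos, an immediate early transcription factor, averaged 19.2 ± 6.87 FPKM after DMM and 8.33 ± 2.33 FPKM after sham surgery and rose by 1.15 (limma adjusted p = 0.0395), in 4 of the 15 fits. Nupr1, a stress-induced nuclear protein, averaged 21.7 ± 11.1 FPKM after DMM and 10.8 ± 3.08 FPKM after sham surgery and rose by 1.02 (limma adjusted p = 0.015). Sod3, the extracellular superoxide dismutase, averaged 16.8 ± 6.75 FPKM after DMM and 5.82 ± 2.51 FPKM after sham surgery and rose by 1.63 (limma adjusted p = 0.00634), stable to leaving out a library. Cdkn1a, the cell cycle inhibitor p21, averaged 12.7 ± 3.45 FPKM after DMM and 8.36 ± 2 FPKM after sham surgery and rose by 0.64 (limma adjusted p = 0.0403), in 5 of the 15 fits. Cell cycle genes (10 of 37 above 0, median -0.06), heme and iron genes (2 of 21, median -0.06) and nuclear oxidative phosphorylation genes (43 of 80, median 0.00) had 0 calls in limma and 0 genes at an unadjusted p under 0.05 without the covariate. All 13 mitochondrially encoded genes had differences below 0, with a median of -0.31 without and -0.11 with the covariate, and 0 passed in limma (0 at an unadjusted p under 0.05 without the covariate). Of the cytosolic ribosomal protein genes 70 of 83 had differences above 0, with a median of 0.07, and 0 passed in limma (2 at an unadjusted p under 0.05). The medians of these 5 lists turned sign under at least 1 alternative setting, with or without the covariate.

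Genes in none of the lists also rose. Ndufa4l2, a mitochondrial protein of pericytes and hypoxic cells, was at 15.9, 22.8, 30.6, 14.6 and 20.4 FPKM in DMM replicates 1 to 5, against 4.75, 12.9, 7.81, 3.55 and 9.33 FPKM in sham replicates 1 to 5. Values did not overlap, and Ndufa4l2 rose by 1.65 (SE 0.18, limma adjusted p = 0.00339). Nbl1, a secreted BMP antagonist, averaged 48.7 ± 19.6 FPKM after DMM and 14.3 ± 5.01 FPKM after sham surgery and rose by 1.92, and Anxa8, an annexin, averaged 35.2 ± 11.8 FPKM after DMM and 13.2 ± 6.31 FPKM after sham surgery and rose by 1.66 (limma adjusted p = 0.00359 and 0.00398). C1qtnf3 and C1qtnf5, secreted proteins related to adiponectin, rose by 1.87 and 1.80 (limma adjusted p = 0.0417 and 0.00563). No sham library reached the filter for C1qtnf3, which did not pass with no filter (limma adjusted p = 0.102). Dpysl3, a cytoskeletal protein of growing axons, averaged 9.99 ± 0.884 FPKM after DMM and 5.98 ± 1.06 FPKM after sham surgery, without overlap, and rose by 0.74 (limma adjusted p = 0.00542). Except for C1qtnf3, which held in 5 of the 15 fits, these 6 were stable to leaving out a library.

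The other genes that fell were few. Slc2a3, the glucose transporter GLUT3, was at 23.1, 12.2, 4.85, 11.2 and 9.18 FPKM in DMM replicates 1 to 5, against 30.5, 25.5, 26.5, 29 and 27.3 FPKM in sham replicates 1 to 5. There was no overlap, and the sham values were close together (log2 difference -1.33, limma adjusted p = 0.0263), a call that held in 10 of the 15 fits. Mllt3, a chromatin reader of blood stem cells, averaged 2.08 ± 0.287 FPKM after DMM and 3.85 ± 0.478 FPKM after sham surgery and fell by 0.64 on the log2 scale (limma adjusted p = 0.0157), a call that held in 14 of the 15 fits and was lost without sham replicate 4. Cyp2e1, a cytochrome P450 of liver and fat, averaged 0.48 ± 0.499 FPKM after DMM and 3.84 ± 2.43 FPKM after sham surgery and fell by 1.38 (limma adjusted p = 0.0395), in 3 of the 15 fits. Its level in sham replicate 4, 0.598 FPKM, lay inside the DMM range. The DMM mean of Cyp2e1 lay below the 1 FPKM of the filter, and entry through sham libraries favours a lower level after DMM. Cyp2e1 reached the filter in 23 of 29 alternative settings with the covariate. Fits in which it was not tested count among those without the call. Fkbp5, a co-chaperone induced by glucocorticoids, averaged 8.52 ± 1.22 FPKM after DMM and 12.8 ± 2.84 FPKM after sham surgery and fell by 0.56 (limma adjusted p = 0.0422), in 4 of the 15 fits. The clock gene Per1 averaged 5.65 ± 2.18 FPKM after DMM and 9.56 ± 2.41 FPKM after sham surgery and did not pass (limma adjusted p = 0.267). Tmem140, Sla and Klf13 fell by 0.52, 0.40 and 0.29 on the log2 scale, in 3, 9 and 2 of the 15 fits. The mitochondrial tRNA gene mt-Tw was at 1.48, 0.915, 1.75, 0.897 and 0.608 FPKM in DMM replicates 1 to 5, against 2.17, 9.25, 4.79, 1.11 and 10.6 FPKM in sham replicates 1 to 5, and in sham bones it was highest where muscle RNA was high (log2 difference -0.98, limma adjusted p = 0.015). The remaining 2 of the 11 carry only a Gm number.

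**Figure D5:**
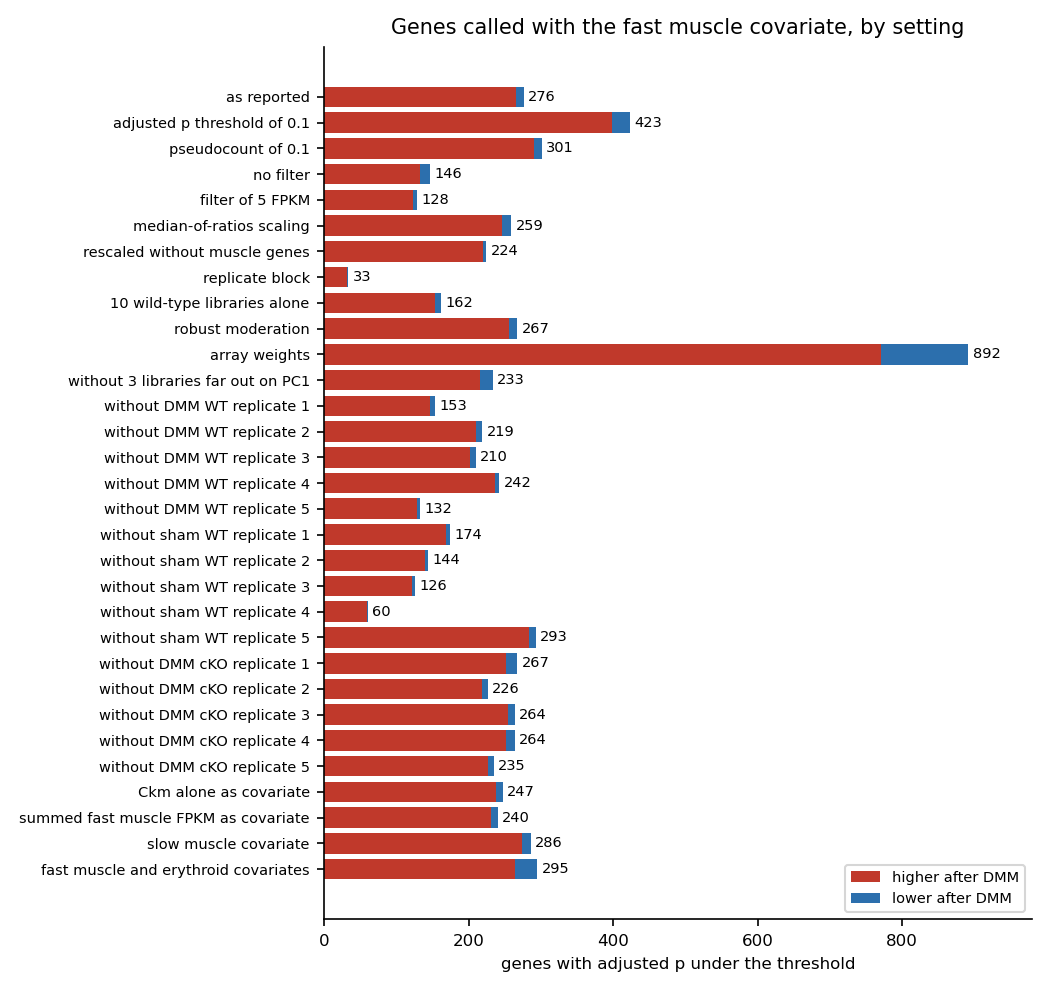
Number of genes with a limma adjusted p under the threshold with the fast muscle covariate, higher (red) and lower (blue) after DMM, as reported and under each alternative. The count of 276 became 33 with replicate number as a block, 60 without sham replicate 4 and 892 with array weights.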

How the data were processed

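RNA of tibial subchondral bone was sequenced as poly(A)-selected, dUTP-stranded libraries, per the labels' protocols, from samples with a RIN of at least 8.0. The deposited table holds FPKM values for 55335 gene IDs, 55154 of them paired with a symbol, which the authors made from the reads. Per the submitters' processing notes, the tools included STAR 2.7.10a, featureCounts 2.0.3, FastQC 0.11.9, Trimmomatic 0.39, R 4.3.1 and DESeq2 1.42.0, with the build mm39. The step that turned fragments into FPKM and the annotation used are not given in the sources used here. FPKM are relative within a library, so abundant globin or muscle RNA lowers every other value, and no counts were recovered, so no interval for counting error is given.

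Columns were assigned by their names, and 0 were left unmatched. Of 105 pairs of libraries 0 held identical values. The labels call the samples biological replicates. The 13653 genes that reached 1 FPKM in 5 or more of the 15 libraries were tested as log2(FPKM + 1), which understates the change of low genes, with limma 3.58.1 in R 4.3.3 using a trend. A single fit held a mean for each of the 3 groups, and DMM minus sham in wild-type mice was the contrast. A second fit added the mean log2 level of 20 fast muscle genes, which were then left out of the counts. P-values were adjusted by Benjamini-Hochberg over all genes, with a threshold of 0.05. Exact permutation tests compared mean log2(FPKM + 1) over all arrangements of the 10 libraries into 5 and 5. The limma fit was tested on simulated data.

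The 80 gene lists (23 compartments, 17 matrix families, 40 pathways; 2028 of 2870 symbols tested) and the genes compared were chosen with earlier results of these data known. They are therefore described by counts and medians, without a list test. Genes were named by rule: up to 12 per direction with the largest difference among those that passed with the covariate, up to 5 per direction by p without it, up to 3 per list by p, and the first gene of each compartment list. Some genes are not reported here. The other members given with values were added after their values were seen. These include Col1a1, Col2a1, Col4a1, Col5a2, Col9a1, Timp1, Mmp13, Tnmd, Thbs4, Sost, Spp1, Ibsp, Frzb, Ndufa4l2, Anxa8, C1qtnf3 and C1qtnf5. RefSeq promoters (GRCm38.p6) were matched by symbol for 160 of 211 named genes. The deposited values belong to another build, so no other coordinates are given. Python 3.11.15, pandas 2.3.3, scipy 1.17.1 and matplotlib 3.10.9 were used.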

Additional observations from a re-analysis of the deposited data

Results flagged for a closer look

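In groups of 5 libraries, a library was singled out when its gap to the nearest of the others exceeded 0.71 of the group's range. Of 582 groups tested, 29 held such a library, close to the 1 in 20 that chance gives. No explanation of these values was tested.

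DMM replicate 3 accounted for many of them. It was the highest DMM library for Pcolce (49.1 FPKM), Jund (154), Copz2 (13.6), Nupr1 (41.3), Atf5 (26.3), Rpl39l (2.48), Prrx2 (4.03), Egfl7 (13.2), Timp1 (89.5), Pvalb (375) and Myh7 (0.35), and for the mean log2 level of the slow muscle list (3.46). It was the lowest for the lymphocyte receptors Il2rb (2.88 FPKM) and Cd27 (2.25) and for the interferon-induced GTPase Irgm2 (6.18).

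DMM replicate 4 was the lowest DMM library for Lum (95.7 FPKM), Ackr3 (5.96), Osr2 (0.296) and the mean log2 level of the fibroblast list (3.86), and the highest for Col10a1 (164 FPKM) and Aplnr (7.24). DMM replicate 2 stood apart in Fmod (141 FPKM) and in Prox1 (0.158), both highest there.

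Among sham bones, replicate 1 was the highest for Oscar (6.23 FPKM), Irgm2 (10.9) and the antibody segment Ighv3-6 (267). Replicate 2 was the lowest for Osm (4.98 FPKM), replicate 5 the highest for Folr2 (1.79), and replicate 3 stood apart in the mean log2 level of the cytosolic ribosomal protein list (7.27).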

How the results depend on the processing

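With the covariate, the count of 276 became 423 at an adjusted p threshold of 0.1, 146 with no filter, 128 with a filter of 5 FPKM, 162 with the 10 wild-type libraries alone and 892 with array weights, and it ran from 60 to 293 when 1 library was left out. Over all settings, those that left out 1 library included, 18 left it within 1.5 times. Without the covariate, the count of 0 became 2 with no filter, 1 when rescaled without muscle genes, 15 with array weights, 4 with a neutrophil covariate and 3 with the first principal component as covariate, and 0 to 2 when 1 library was left out. A filter changes how many genes are tested, and the cause of the other shifts was not tested. The labels do not say that replicate numbers pair the samples, and they were not taken to, because same-numbered deviations correlated at 0.13, 0.103, 0.4 and 0.306 but at -0.237 for 1 number. As a hint from the data, 4 of the 5 numbers correlated best with their own. With replicate number as a block, 33 genes passed with the covariate (32 of them among the 276) and 0 without it.

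The direction turned for genes whose difference was near 0. The settings were array weights, leaving out the 3 outlying libraries on the first principal component, that component or marker levels as covariates (both: fast muscle and erythroid), and another scaling. With the fast muscle covariate, Dmp1 (-0.0169) became 0.224 (array weights) and 0.00234 (without the 3 outlying libraries) and ran from -0.476 to 0.343 with 1 library left out. Lepr (-0.0826) became 0.0359 (array weights), 0.119 (without the 3 outlying libraries) and 0.0262 (both covariates) and ran from -0.196 to 0.143 with 1 library left out. Hbb-bs (-0.00833) became 0.00069 (Ckm alone) and 0.198 (both covariates) and ran from -0.0672 to 0.106 with 1 library left out. Pf4 (0.0486) became -0.036 (array weights), -0.127 (without the 3 outlying libraries) and -0.0245 (both covariates) and ran from -0.148 to 0.141 with 1 library left out. Sost (0.0352) ran from -0.179 to 0.19 with 1 library left out.

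Without the covariate, Dmp1 (-0.0396) became 0.0464 (the principal component) and ran from -0.234 to 0.247 with 1 library left out. Lepr (-0.0626) became 0.0305 (array weights), 0.109 (without the 3 outlying libraries), 0.0111 (an erythroid covariate) and 0.104 (the principal component) and ran from -0.165 to 0.109 with 1 library left out. Hbb-bs (0.00862) became -0.00754 (median-of-ratios scaling), -0.00395 (without the 3 outlying libraries) and -0.0373 (a neutrophil covariate) and ran from -0.0544 to 0.106 with 1 library left out. Pf4 (0.0524) became -0.0429 (array weights), -0.0869 (without the 3 outlying libraries) and -0.0975 (the principal component) and ran from -0.0869 to 0.14 with 1 library left out. Kit (-0.0732) became 0.00134 (array weights) and 0.0135 (without the 3 outlying libraries) and ran from -0.12 to 0.0135 with 1 library left out. Sost (-0.0444) became 0.0528 (array weights), 0.0305 (without the 3 outlying libraries) and 0.0237 (the principal component) and ran from -0.199 to 0.0964 with 1 library left out.

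Over the genes named, 733 gene and setting pairs with the covariate lost the call in the same direction, 137 gained one and 5026 stayed on their side. A slope fitted in the 10 wild-type libraries is the same fit as those libraries alone. HOX genes had no value at the filter of 5 FPKM. Absolute depth is unknown, and genes near 1 FPKM rest on few fragments. Of 80 list medians, 25 turned sign under at least 1 setting without the covariate, none above 0.285 in size, and 25 of 79 with it, none above 0.164. With no filter, which adds genes near 0 FPKM, the median with the covariate became 0.526 for filament and beaded collagens, 0.284 for collagen chains, 0.156 for metalloproteinases and 0.0763 for basement membrane genes.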
